A study of Mus musculus with 24 samples.

Results

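The comparison described here is the nucleus accumbens against the ventral tegmental area (VTA) of wild-type mice that had received phosphate-buffered saline (PBS). Its members are 6 of the 24 samples of the series, taken by their labels alone: the accumbens and VTA libraries of mice 1, 2 and 3, genotype VDR+/+ and injection PBS. The labels give the same number to 1 library of each region, and this number was taken to mark the mouse, which no label states outright. All mice of the study were on a C57BL/6 background, and the injection was intraperitoneal. The study as a whole asked how deficient vitamin D signaling bears on opioid use in patients and on opioid and ultraviolet responses in mice. Its sequencing of these regions asked how loss of the vitamin D receptor (VDR) changes their response to morphine. The labels place tissue collection 90 min after injection, whereas the study's methods give another time for the saline controls of its time course. Age and sex are not given in the sources used here. By their transcripts all 6 libraries read as male. The sex-linked list summed to between 2590.5 and 3740 normalized reads in each, with the Y-linked genes *Ddx3y*, *Eif2s3y*, *Kdm5d* and *Uty* tested and *Xist* too low to test. Each library was made from bilateral micropunches of frozen brain sections, so it holds all cell types of the punch and any neighbouring tissue in it. A second set of 6 libraries came from the same regions of *Vdr*-/- PBS mice 7, 8 and 9. It was used to ask whether the regional difference changed with genotype, and as part of the reference in the check on exon length. According to the study's methods, animals lacking the receptor were reared on calcium-enriched feed for the sake of their skeleton. The feed of the wild-type PBS mice is not stated there, so diet may differ with genotype. An effect of diet and an effect of genotype cannot be told apart in that comparison.

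The VTA holds the cell bodies of midbrain dopamine neurons, beside GABA and glutamate neurons. Their axons release dopamine in the accumbens, where most neurons are GABAergic medium spiny neurons. These carry dopamine D1 receptors with dynorphin and substance P, or D2 receptors with enkephalin, and use a cAMP cascade built on the G protein subunit Golf, adenylyl cyclase 5 and DARPP-32. Opioids act on both regions through the µ, δ and κ receptors.

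Reads on genes ranged from 11628792 (accumbens mouse 2) to 24639035 (VTA mouse 1) per library. Accumbens mouse 2 stood apart from the other libraries. Each library was set against the median of the other PBS libraries of its region, of both genotypes, over 12467 protein-coding genes. The rank correlation of this ratio with exon length was -0.442 in accumbens mouse 2, against -0.063 to 0.156 in the other 5 libraries. In accumbens mouse 2, long genes were thus low and short genes high. The sampling-scaled distance between replicates (chi-square per degree of freedom over genes with at least 20 reads) was 32.9 and 34.5 for the pairs that included it and 5.11 to 9.68 for the other pairs. VTA mouse 3 held transcripts of the forebrain and VTA mouse 2 transcripts of the hypothalamus and of serotonin neurons (both described with their markers), and both libraries of mouse 3 were high in hemoglobin transcripts.

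Values are reads per gene after scaling the 6 libraries together. Differences are log2(value + 1) of the accumbens minus the VTA within mice, given ± SE (n = 3 mice), with adjusted p from limma. The p-values measure only the spread between these samples. In bulk tissue, fewer cells of a type and less RNA per cell cannot be told apart.

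Of 16312 genes tested, 3563 (21.8%) were higher in the accumbens and 3786 (23.2%) higher in the VTA, or 45.1% in all. A change of at least 2-fold was called for 1405 genes (8.61%) in the accumbens and 1453 (8.91%) in the VTA, and a log2 difference of at least 5 for 43 and 51 genes. The 3 values of a region did not overlap the 3 of the other for 59.2% of genes, with the accumbens above for 28.8% and the VTA above for 30.4%. The median log2 difference of all genes was -0.02 and the median absolute difference 0.39. For 4323 genes (26.5%) the 95% confidence interval lay within ±0.5 on the log2 scale. Among protein-coding genes 46.9% were called, among long noncoding and antisense genes 35.4% and among pseudogenes 23.7%.

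**Figure D1:**
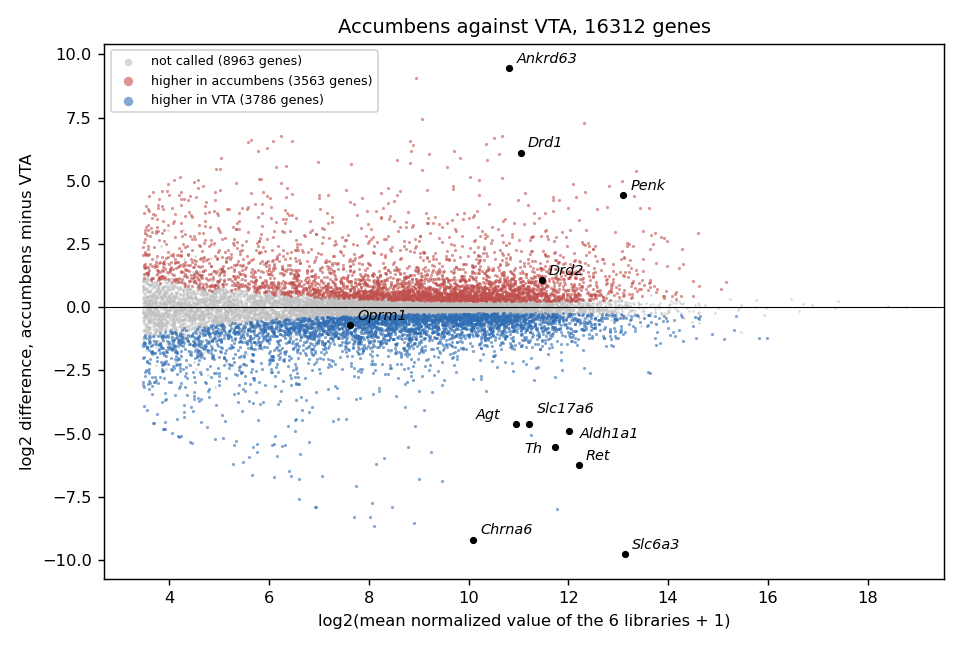
Each point is 1 of 16312 genes. The x axis is log2 of the mean value of the 6 libraries plus 1 and the y axis the log2 difference, accumbens minus VTA. Red points are the 3563 genes called higher in the accumbens, blue points the 3786 called higher in the VTA, and gray points were not called. *Slc6a3* lies lowest at -9.78 and *Ankrd63* highest at 9.45.

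The VTA was set apart by the machinery that makes, packages and recaptures dopamine. *Slc6a3* (chr13:73536747-73578672), the dopamine transporter, held 15.3, 21.2 and 21.6 in the accumbens libraries of mice 1, 2 and 3 and 21028, 16701 and 15869 in the VTA, a difference of -9.78 ± 0.19 (adjusted p = 3.13e-05) and the largest toward the VTA among named genes. *Th* (chr7:142892752-142931128), tyrosine hydroxylase, the rate-limiting enzyme, held 185, 127 and 119 against 7815, 6261 and 6008, which is 46.8-fold (log2 difference -5.55 ± 0.088, adjusted p = 2.85e-05). *Slc18a2* (chr19:59260896-59296012), the vesicular monoamine transporter, held 44.8, 11.4 and 35.2 against 7918, 6564 and 6285 (-7.97 ± 0.34, adjusted p = 0.000148). All 3 accumbens libraries lay far below all VTA libraries for these genes, which checks the labelled regions. The accumbens values were above 0 in every library. Per kilobase of exon, the mean value of *Slc6a3* was 5170 in the VTA and 5.60 in the accumbens, and that of *Th* 2832 and 60.8.

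The other enzymes followed in size. *Ddc*, which makes dopamine from DOPA, held 124, 191 and 114 in the accumbens and 5294, 4631 and 4167 in the VTA (-5.06 ± 0.17). *Aldh1a1*, an aldehyde dehydrogenase of a subset of dopamine neurons, held 239, 244 and 326 and 8428, 7864 and 7594 (-4.89 ± 0.13). *Gch1*, which makes the tetrahydrobiopterin cofactor of *Th*, held 11.8, 9.78 and 16 and 329.7, 292 and 270.4 (-4.49 ± 0.21). In each of the 3, no value of one region reached the other. The later enzymes of the cofactor differed less: *Qdpr* by -0.97 ± 0.080 and *Spr* by -0.60 ± 0.13, and *Pts* was not called (-0.19 ± 0.10, adjusted p = 0.168). *Maoa*, which breaks down monoamines, was also higher in the VTA (-1.12 ± 0.091). Of the 13 tested genes of dopamine synthesis, transport and breakdown, 10 were higher in the VTA and 1 in the accumbens, with a median log2 difference of -1.12 against -0.02 over all genes. The call of *Spr* was lost without mouse 1 (-0.46), and for *Maob* (-0.43 ± 0.10) the call was lost in 4 of the 9 fits that left out a mouse or a library (log2 differences from -0.53 to -0.31).

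Because *Th* and *Slc18a2* are both high in the VTA libraries, the start regions of the list were searched for the cAMP response element TGACGTCA, which reads the same on both strands, and for AAAGGTCA on either strand (TGACCTTT on the opposite one), a nuclear receptor half-site of the NR4A family. Of the 11 members of the synthesis and transport list with a RefSeq promoter, 2 held TGACGTCA (*Th* and *Slc18a2*) and 1 held AAAGGTCA (*Ddc*, in 1 of its 2 promoters). *Sst*, the somatostatin gene in which the element is best known, is shown beside them and was higher in the accumbens. The sequences are 250 bases before to 50 after the annotated start in RefSeq on GRCm38.p6, 5′ to 3′ on the strand of the gene, with the motif in capitals: *Th* chr7:142899946-142900245 on the minus strand, *Slc18a2* chr19:59260628-59260927 on the plus strand, *Sst* chr16:23890795-23891094 on the minus strand and *Ddc* chr11:11898095-11898394 on the minus strand.
Th: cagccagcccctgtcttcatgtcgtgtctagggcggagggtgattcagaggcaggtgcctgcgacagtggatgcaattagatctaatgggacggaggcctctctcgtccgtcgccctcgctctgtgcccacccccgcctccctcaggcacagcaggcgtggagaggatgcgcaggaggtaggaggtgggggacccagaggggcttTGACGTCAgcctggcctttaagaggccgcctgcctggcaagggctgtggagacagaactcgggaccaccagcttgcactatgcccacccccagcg
Slc18a2: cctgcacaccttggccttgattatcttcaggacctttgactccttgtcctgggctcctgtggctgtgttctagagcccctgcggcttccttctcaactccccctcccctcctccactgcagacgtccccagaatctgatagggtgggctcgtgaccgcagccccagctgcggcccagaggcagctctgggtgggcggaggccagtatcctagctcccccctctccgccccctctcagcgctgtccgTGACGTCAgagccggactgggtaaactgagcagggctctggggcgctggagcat
Sst: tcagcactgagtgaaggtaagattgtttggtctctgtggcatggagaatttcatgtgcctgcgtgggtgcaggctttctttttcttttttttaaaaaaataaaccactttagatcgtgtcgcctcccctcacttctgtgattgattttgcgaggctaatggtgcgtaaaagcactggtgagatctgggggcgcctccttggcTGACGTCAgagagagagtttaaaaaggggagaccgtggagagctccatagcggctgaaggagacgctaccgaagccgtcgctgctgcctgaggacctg
Ddc: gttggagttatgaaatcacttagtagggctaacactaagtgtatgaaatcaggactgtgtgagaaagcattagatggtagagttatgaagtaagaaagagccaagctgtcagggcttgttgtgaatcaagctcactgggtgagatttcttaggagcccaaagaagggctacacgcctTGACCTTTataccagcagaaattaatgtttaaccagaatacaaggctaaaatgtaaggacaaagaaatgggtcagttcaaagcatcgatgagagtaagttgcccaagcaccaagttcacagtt
The first base of the element lay 45 bases before the start in *Th*, 4 in *Slc18a2* and 48 in *Sst*, and that of the half-site 73 bases before it in *Ddc*. TGACGTCA stood in 1.79% of 32851 promoters, in 2.85% of those of tested genes, in 2.4% of those of genes at least 2-fold higher in the accumbens and in 1.85% of those at least 2-fold higher in the VTA. AAAGGTCA stood in 1.51%, 1.02%, 0.618% and 1.49% of the same sets. Counted by gene, TGACGTCA stood before 3.43% of tested genes and AAAGGTCA before 1.21%. In 4 further lists TGACGTCA was found for 0 of 10 dopamine neuron factors, 1 of 23 medium spiny neuron genes, 2 of 18 activity-regulated genes and 3 of 22 neuropeptides, and AAAGGTCA for 1, 1, 0 and 0 of the same. These matches describe the letters only, and promoters of 1 gene can overlap.

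The transcription factors that make and maintain dopamine neurons were near 0 in the accumbens. Of 13 tested, 10 were higher in the VTA and 0 in the accumbens. *Lmx1a* and *Foxa2* had no read in any accumbens library. Their VTA values were 293, 235 and 199 and 105, 93.4 and 98.9, so that *Lmx1a* was at least 67.1-fold and *Foxa2* at least 27.5-fold higher in the VTA (against a floor of 3 reads in each accumbens library). *En1* had 3 accumbens reads against 1842 VTA reads in all, a ratio of 471 (95% counting interval 161 to 2285), *Foxa1* 1 against 1475 (1131, 203 to 44700) and *Pitx3* 1 against 313 (240, 42.8 to 9509). The intervals cover counting error only. *Lmx1b* held 0, 1.63 and 4.8 against 633, 519.8 and 438 (-7.73 ± 0.57, and -6.92 without mouse 1 and -8.37 without mouse 3) and *Otx2* 17.7, 17.9 and 16 against 116, 104 and 141 (-2.73 ± 0.20). The median of the list was -5.75, and -4.78 with genes at 0 set to their bound.

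*Nr4a2* (Nurr1) departed from this pattern. Its accumbens values were 656, 495 and 1307 and its VTA values 1452, 1257 and 1334, and the value of accumbens mouse 3 lay within the VTA range. The difference was -0.84 ± 0.26 (adjusted p = 0.0458), and the call was lost in 6 of the 9 fits that left out a mouse or a library, with log2 differences from -1.24 to -0.54; without accumbens mouse 2 it was -0.54. The factors *Pbx3* and *Sox6* were not called, with differences of 0.014 ± 0.080 and -0.50 ± 0.20.

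Genes known from subsets of dopamine neurons were split. Of 20 tested, 14 were higher in the VTA and 6 in the accumbens (median -2.36). *Ret*, the receptor subunit for the trophic factor GDNF, held 175, 94.5 and 109 in the accumbens and 10417, 9093 and 8452 in the VTA (-6.24 ± 0.14). *Chrna6*, a nicotinic receptor subunit, held 3.53, 1.63 and 3.2 against 2449.5, 2134 and 1908 (-9.19 ± 0.20). *Gucy2c*, guanylyl cyclase C, held 11.8, 1.63 and 12 against 629.5, 509.7 and 529 (-6.19 ± 0.45, and -5.51 without mouse 2). For all 3 the regions were far apart in every mouse. *Sncg* (-5.52 ± 0.13), *Anxa1* (-5.43 ± 0.28) and *Grp* (-4.51 ± 0.32) were also higher in the VTA. *Kcnj6*, the GIRK2 channel, held 324, 122 and 586 against 950.3, 857 and 903 (-1.66 ± 0.39, adjusted p = 0.0201), and the call was lost in 5 of the 9 fits that left out a mouse or a library (log2 differences from -2.17 to -1.05); its lowest accumbens value was that of mouse 2, and without that mouse the difference was -1.09. The 6 members higher in the accumbens were *Lpl* (3.32 ± 0.26), *Neurod6* (2.6 ± 0.14), *Vip* (2.38 ± 0.19), *Calb1* (1.55 ± 0.087), *Cck* (1.36 ± 0.17) and *Drd2* (1.06 ± 0.076), which neurons of the striatum or cortex also express. The call of *Cck* was lost without accumbens mouse 3, VTA mouse 1 or VTA mouse 2 (lowest log2 difference 1.04).

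**Figure D2:**
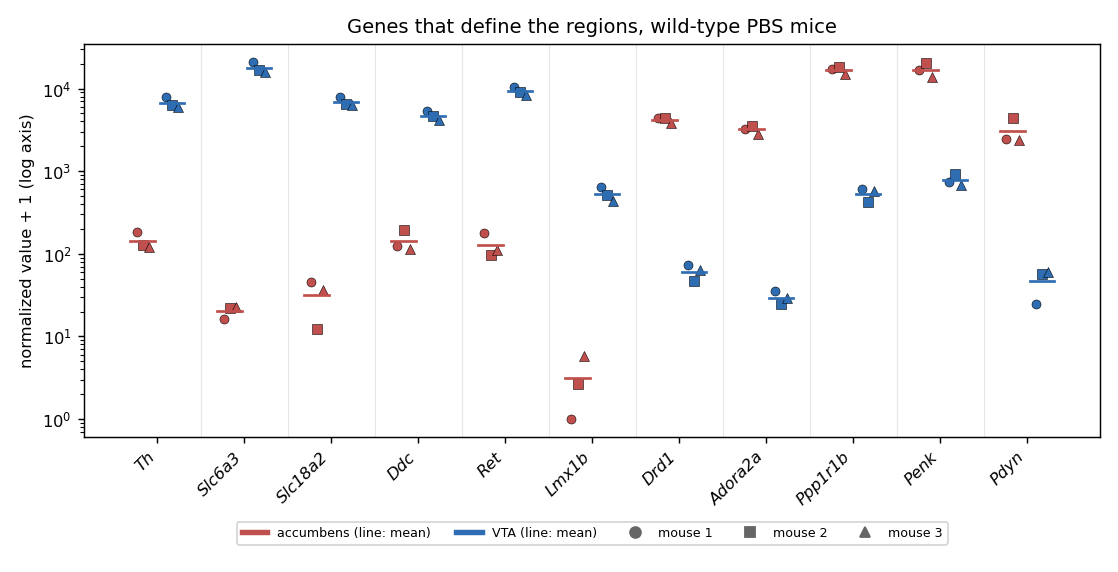
Values plus 1 of 11 genes on a log axis, red for the accumbens and blue for the VTA, with a symbol for each mouse and a line at each mean of 3 mice. The 6 genes on the left lie lower in the accumbens and the 5 on the right lower in the VTA, with no overlap between the regions.

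Medium spiny neuron genes formed the mirror image. Of 30 genes, 29 passed the filter on low values and all 29 were higher in the accumbens, with a median log2 difference of 3.91. *Drd1*, the D1 receptor, held 4361, 4347 and 3788 in the accumbens and 71.6, 45.7 and 62.7 in the VTA (6.11 ± 0.15). *Adora2a* (chr10:75316877-75334784), the adenosine receptor of D2-type neurons, held 3256, 3555 and 2826 against 34.3, 23.4 and 28 (6.77 ± 0.16). Both genes were separated in every mouse. *Sh3rf2* was the largest of the list at 9.06 ± 0.27, with 4 reads in all VTA libraries together. *Bcl11b* (4.26 ± 0.078) and *Foxp1* (2.76 ± 0.11), transcription factors of striatal neurons, were also higher. *Kcnip2*, a subunit of A-type potassium channels, held 4364, 4723 and 3966 against 153, 163 and 725 (4.04 ± 0.49), with its highest VTA value in mouse 3 and 4.84 without that mouse. The 29 calls held in each fit that left out a mouse or one of the 3 libraries that stood apart.

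Of the whole table, *Ankrd63* (chr2:118699103-118703963) showed the largest difference toward the accumbens. It held 3409.6, 4199 and 3189 against 5.97, 0 and 18.1 (9.45 ± 0.84, adjusted p = 0.000834), again with the highest VTA value in mouse 3. Over the 9 fits that left out a mouse or a library it lay between 8.17 (without mouse 2) and 10.4 (without mouse 3). *Cd4*, known as a T cell coreceptor, held 1226, 932 and 1013 against 6.71, 2.03 and 8.25 (7.45 ± 0.30). *Ptprv* (6.57 ± 0.32), *Olfr1393* (6.56 ± 0.43) and *Kcnj4*, an inward rectifier channel (6.46 ± 0.54, and 5.59 without mouse 2), were among the 12 largest. *Asb11* had 2 VTA reads against 325 (ratio 212, 95% counting interval 58.2 to 1757) and *Lhx8*, a factor of cholinergic neurons, 1 against 361 (471, 84.0 to 18648). *Crym*, a thyroid hormone binding protein, held 2631, 3412 and 2065 against 26.9, 0 and 576; its difference of 6.71 ± 1.73 had the widest error of the 12, and the call was lost without mouse 1 (6.77) and in 3 single-library fits. Without mouse 3 it was 9.08 and without mouse 2 4.2, both called, and without VTA mouse 2 alone 4.38. At the other end, *Pax5* differed by -7.92 ± 0.19 and *Myoc*, the myocilin gene, by -7.08 ± 0.55 (-6.22 without mouse 1), while *Gata3* and *Cnpy1* had no accumbens read and were at least 66.9-fold and 53.0-fold higher in the VTA.

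The cAMP cascade downstream of dopamine and adenosine receptors was largely higher in the accumbens. Of 30 members, 23 were higher there and 4 in the VTA (median 1.50). *Ppp1r1b*, DARPP-32, held 17239.8, 18246 and 14877 against 604, 424 and 575 (4.98 ± 0.15). *Gnal*, the Golf alpha subunit, held 18862, 18052 and 17456 against 4758, 5124 and 4730.4 (1.9 ± 0.083), and *Gnas*, the Gs alpha subunit that couples the same receptors elsewhere, was lower in the accumbens, with 10980.1, 12671 and 12162 against 22466, 24628 and 22832 (-0.97 ± 0.086). The pair differed in opposite directions with no overlap in either gene. Its partner *Gng7* differed by 4.42 ± 0.13. Among adenylyl cyclases, *Adcy5* was higher in the accumbens (2.79 ± 0.085), *Adcy8* in the VTA (-1.81 ± 0.086) and *Adcy2* was not called (0.10 ± 0.091). Among phosphodiesterases, which degrade cAMP and cGMP, *Pde10a* (3.94 ± 0.20), *Pde2a* (3.49 ± 0.25), *Pde7b* (3.29 ± 0.14) and *Pde1b* (3.03 ± 0.081) were higher in the accumbens and *Pde4d* in the VTA (-0.62 ± 0.14, lost without mouse 1 at -0.69, and without VTA mouse 1 or 2). *Rgs9* (4.36 ± 0.14) and *Rgs14* (5.53 ± 0.31), which end G protein signals, were higher in the accumbens. For the kinase itself, the catalytic subunit *Prkaca* was higher in the VTA (-0.56 ± 0.075), the regulatory subunit *Prkar2b* in the accumbens (1.59 ± 0.079), and *Prkacb* and *Prkar1b* were not called.

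All 4 dopamine receptor genes tested were higher in the accumbens, by amounts that differed widely, and *Drd4* was below the filter. *Drd2*, which dopamine neurons carry as an autoreceptor, held 4096, 3837 and 3488 in the accumbens and 2094, 1759 and 1649.9 in the VTA, only 2.08-fold apart (1.06 ± 0.076) though with no overlap. *Drd3* held 164, 89.6 and 189.6 against 16.4, 13.2 and 7.42 (3.47 ± 0.37). *Drd5* held 56.5, 94.5 and 48 against 47, 36.6 and 27.2 (0.80 ± 0.25, adjusted p = 0.0484), and the call was lost in 7 of the 9 fits that left out a mouse or a library (log2 differences from 0.52 to 1.07). Per kilobase of exon, the order of mean levels in the accumbens was *Drd2* (1495), *Drd1* (1148), *Drd3* (86.2) and *Drd5* (21.0), and in the VTA *Drd2* (720), *Drd1* (16.5), *Drd5* (11.7) and *Drd3* (7.21).

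Opioid receptors did not share a direction. *Oprm1*, the µ receptor through which morphine acts, held 316, 17.9 and 266 in the accumbens and 191, 196 and 185 in the VTA. Accumbens mouse 2 was far below every other library, the regions overlapped, and the difference was not called (-0.71 ± 0.82, adjusted p = 0.512). Without mouse 2 *Oprm1* was higher in the accumbens, by 0.62 (adjusted p = 0.00296), and without the accumbens library of mouse 2 alone by 0.60 (adjusted p = 0.00248, unpaired). The annotated exons of *Oprm1* span 8037 bases, against a median of 4229 over all tested genes, and the part of length in this low value was not tested. *Oprd1*, the δ receptor, held 601, 505 and 586 against 125, 178 and 187 and was higher in the accumbens (1.8 ± 0.17). *Oprk1*, the κ receptor, held 942, 1066 and 1023 against 632, 678 and 529, also higher in the accumbens (0.73 ± 0.10). *Oprl1*, the nociceptin receptor, was higher in the VTA, with 634, 816 and 626 against 1423, 1574 and 1322 (-1.06 ± 0.083). None of these 3 overlapped between regions. Per kilobase of exon the mean accumbens levels were 184 for *Oprl1*, 140 for *Oprd1*, 110 for *Oprk1* and 24.9 for *Oprm1*, and the VTA levels 384, 40.6, 67.0 and 23.7.

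The opioid peptide precursors differed more than their receptors. *Penk*, proenkephalin, held 16628, 20109.8 and 13756 against 731, 918 and 680.2 (4.43 ± 0.078). *Pdyn*, prodynorphin, held 2431, 4453 and 2374 against 23.9, 55.8 and 58.5 (6.07 ± 0.25). *Pnoc*, the nociceptin precursor, was higher in the VTA, with 73, 42.4 and 43.2 against 154, 217 and 187 (-1.83 ± 0.27), the same direction as its receptor. *Pomc* was below the filter. Of 28 neuropeptide genes, 23 were tested: 11 were higher in the accumbens and 7 in the VTA (median 0.31), and 7 in each without VTA mouse 1. Beside the opioids, *Tac1*, the substance P precursor (2.67 ± 0.14), *Npy* (4.7 ± 0.35), *Sst* (2.83 ± 0.25) and *Cartpt* (2.2 ± 0.36) were higher in the accumbens. *Sst* held 1981, 2843 and 2125 against 234, 279 and 507. In the VTA, *Adcyap1*, the PACAP precursor, held 1239, 951 and 895 against 25.9, 83.1 and 94.4 in the accumbens (-4.09 ± 0.45, and -3.36 without mouse 1), and *Calca* (-1.96 ± 0.32) was also higher. *Tac2*, *Nts* and *Nmb* were not called, with differences of 0.31 ± 0.15, 0.17 ± 0.16 and 0.27 ± 0.22.

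The classes of transmitter neuron showed sharper contrasts for glutamate than for GABA. *Slc17a6* (VGLUT2), the vesicular transporter of midbrain glutamate neurons, held 184, 213 and 158 in the accumbens and 4662, 5216 and 3846 in the VTA (-4.62 ± 0.075). *Slc17a7* (VGLUT1), that of cortical neurons, ran the other way with 6037, 7661 and 14650.2 against 72.4, 323 and 2202 (4.55 ± 0.64), and the highest VTA value was that of mouse 3. Without VTA mouse 3 the difference was 5.83 and without VTA mouse 1, the lowest, 3.38. *Slc17a8* (VGLUT3) held 263, 323 and 202 against 15.7, 43.7 and 21.4 (3.34 ± 0.24). The GABA-synthesizing enzymes *Gad1* (0.53 ± 0.13, lost without mouse 1 at 0.46) and *Gad2* (0.78 ± 0.11) were modestly higher in the accumbens. The astrocytic GABA transporter *Slc6a11* was higher in the VTA, with 23276, 20747 and 18847 against 4004, 4515 and 2520.5 (-2.55 ± 0.14). Glycine transporters *Slc6a9* (-2.01 ± 0.084) and *Slc6a5* (-3.0 ± 0.43) were higher in the VTA. Cholinergic interneuron genes were higher in the accumbens: *Chat*, which makes acetylcholine, held 406, 425 and 242 against 11.9, 11.2 and 16.5 (4.63 ± 0.29), and *Slc18a3* (4.91 ± 0.27) and *Slc5a7* (4.11 ± 0.28) went with it, whereas *Ache*, which breaks acetylcholine down, was higher in the VTA (-1.17 ± 0.13).

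Families of receptor subunits were divided between the regions. Of 14 GABA-A subunits, 5 were higher in the accumbens and 6 in the VTA (median -0.21). The second count fell to 3 without mouse 1, without VTA mouse 1 and without VTA mouse 2. *Gabrd*, the extrasynaptic δ subunit, held 1603, 1817 and 1532 against 6.71, 34.5 and 42.1 (6.18 ± 0.48, and 5.42 without mouse 1). *Gabra4*, its usual partner in striatum, held 2902, 2460.2 and 2683 against 597, 600.1 and 712 (2.08 ± 0.097). *Gabrb2* was not called (-1.26 ± 0.53), but was called higher in the VTA without mouse 2 (-0.41). Neighbours on a chromosome did not always go together. On chromosome 7, *Gabrg3* (1.15 ± 0.21) was higher in the accumbens and *Gabra5* was not called (0.27 ± 0.12). On chromosome 5, *Gabra2* (1.03 ± 0.093) and *Gabra4* were higher in the accumbens, *Gabrg1* in the VTA (-0.40 ± 0.091; the call was lost in 5 of the 9 fits that left out a mouse or a library (log2 differences from -0.47 to -0.28)) and *Gabrb1* was not called. *Gabrq* held 167, 103 and 36 against 473, 799 and 425 (-2.66 ± 0.38, and -2.04 without accumbens mouse 3).

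**Figure D3:**
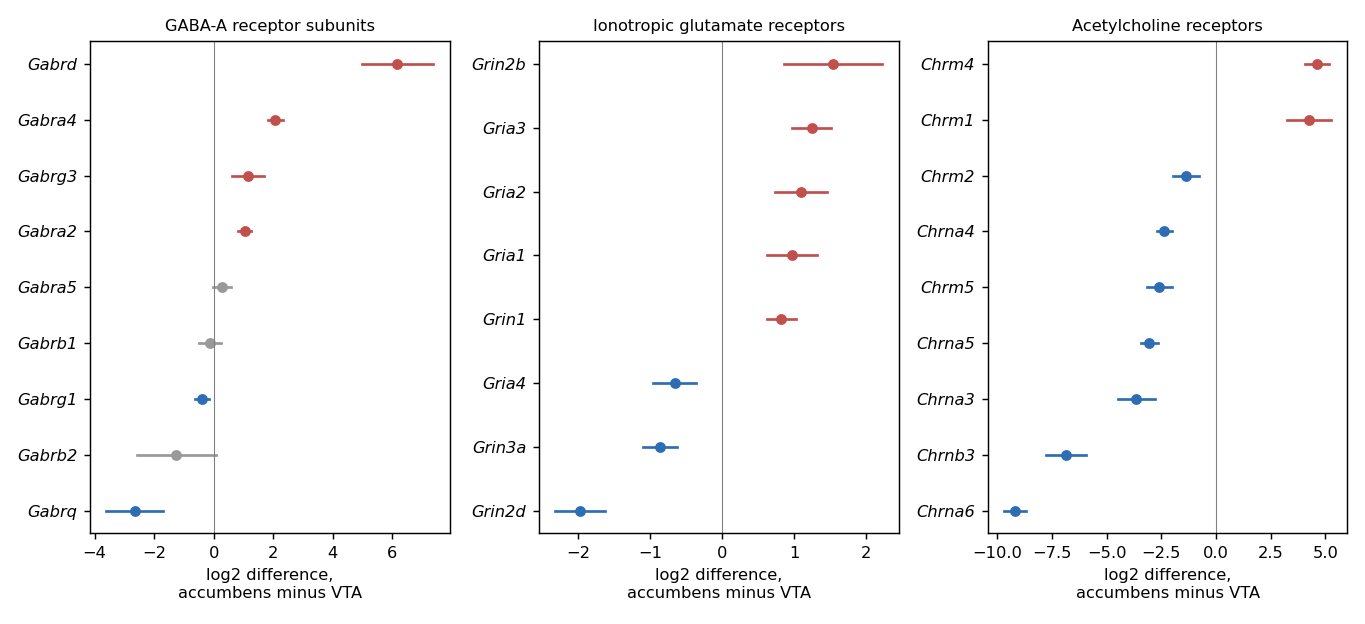
Log2 differences, accumbens minus VTA, of the members named in the text, 9 GABA-A subunits, 8 ionotropic glutamate receptor subunits and 9 acetylcholine receptors, with 95% confidence intervals from 3 mice. Red points were called higher in the accumbens, blue points higher in the VTA and gray points were not called. *Gabrd* stands at 6.18 and *Chrna6* at -9.19, while no glutamate receptor subunit shown is beyond 2 in either direction.

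Ionotropic glutamate receptor subunits differed by less. Of 18, 11 were higher in the accumbens and 6 in the VTA (median 0.58). The AMPA subunits *Gria1* (0.97 ± 0.14), *Gria2* (1.09 ± 0.14) and *Gria3* (1.24 ± 0.11) were higher in the accumbens and *Gria4* in the VTA (-0.66 ± 0.12). Of the NMDA subunits, *Grin1* held 12171, 12734 and 12383 against 6497, 7501 and 7149.6 (0.82 ± 0.081). *Grin2d*, known from midbrain and brainstem, held 329.8, 428 and 262 against 1358, 1329 and 1261 (-1.98 ± 0.14), and *Grin3a* (-0.87 ± 0.093) was also higher in the VTA. *Grin2b* was higher in the accumbens (1.54 ± 0.27), with 18395, 6362 and 19850.4 against 4209, 3925 and 5712, and the call was lost in 4 of the 9 fits that left out a mouse or a library (log2 differences from 1.25 to 2.07). Of 7 metabotropic receptors, 4 were higher in the accumbens, led by *Grm5* (1.5 ± 0.23) and *Grm4* (1.46 ± 0.089), and 2 in the VTA (1 without mouse 1 or VTA mouse 2), among them *Grm8* (-0.65 ± 0.18; the call was lost in 2 of the 9 fits that left out a mouse or a library (log2 differences from -0.80 to -0.42)).

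Acetylcholine receptors leaned to the VTA, with 10 of 14 higher there and 2 in the accumbens (median -1.55). The nicotinic subunits that accompany *Chrna6* in dopamine neurons showed it most: *Chrnb3* held 13, 4.89 and 20 against 1614, 1377 and 1215 (-6.86 ± 0.37), *Chrna5* 22.4, 16.3 and 20 against 186, 157 and 164 (-3.06 ± 0.16) and *Chrna4* 883, 714 and 1050.3 against 4868, 4537 and 4145 (-2.37 ± 0.14). *Chrna3* (-3.65 ± 0.34) went with them. The muscarinic receptors were divided by type. *Chrm1* (3564, 4034 and 3911 against 142, 114 and 492, 4.26 ± 0.40, and 4.89 without mouse 3) and *Chrm4* (4.62 ± 0.22), the receptors of medium spiny neurons, were higher in the accumbens. *Chrm5*, the receptor of dopamine neurons, held 57.7, 26.1 and 28.8 against 248, 239.6 and 175 (-2.6 ± 0.23), and *Chrm2* was also higher in the VTA (-1.38 ± 0.24). Serotonin receptors leaned to the accumbens, with 6 of 11 tested higher there and 1 in the VTA (median 0.85), and 3 and 1 without mouse 1 or without its accumbens library, VTA mouse 1 or VTA mouse 2. Without mouse 2 they were 5 and 2. *Htr6* (2.28 ± 0.19), *Htr1b* (1.88 ± 0.15) and *Htr1d* (1.68 ± 0.14) led the first group, and *Htr7*, with 351, 369.6 and 322 in the VTA against 90.7, 117 and 79.2, was the exception (-1.87 ± 0.12).

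Of 38 channels of pacemaking and excitability, 14 were higher in each region (median -0.04), and without mouse 2 the accumbens count was 19. All 3 called pacemaker channels lay toward the VTA: *Hcn4* held 143, 210.2 and 140.0 against 624, 543 and 559 (-1.83 ± 0.17), and *Hcn3* (-1.05 ± 0.14) and *Hcn2* (-1.0 ± 0.083) differed less. *Cacna1g*, a T-type calcium channel, was higher in the VTA (-1.29 ± 0.12), and its relatives *Cacna1h* (1.16 ± 0.16) and *Cacna1i* (0.74 ± 0.071) in the accumbens. The inward rectifiers *Kcnj4* (2228, 2682 and 2819 against 43.3, 8.12 and 60.2) and *Kcnj2* (1.93 ± 0.092) were higher in the accumbens. A-type potassium channels were also divided, with *Kcnd2* (1.14 ± 0.14) higher in the accumbens and *Kcnd3* (-1.62 ± 0.087) in the VTA. Among sodium channels, *Scn4b* was higher in the accumbens (2.49 ± 0.10) and *Scn1a* in the VTA (-1.49 ± 0.20). *Scn2a* and *Scn8a* were not called (0.49 ± 0.25 and 0.20 ± 0.15) with accumbens mouse 2 lowest, and were called higher in the accumbens without mouse 2 (0.88 and 0.40).

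Genes that neurons switch on with activity were mostly higher in the accumbens of these PBS-injected mice: 17 of 23 tested, against 2 in the VTA, with a median of 2.08. *Egr2* held 224, 101 and 149.6 against 0.746, 3.05 and 3.3 (5.6 ± 0.49, and 4.89 without mouse 1). *Egr3* held 3676, 2543 and 3167 against 61.9, 50.8 and 214 (5.12 ± 0.39, and 5.74 without mouse 3). *Nr4a1* held 1916, 1287 and 1717 against 248, 198 and 243 (2.82 ± 0.090). None of these overlapped. *Nptx2* (3.3 ± 0.30), *Egr1* (2.97 ± 0.14), *Fosb* (2.71 ± 0.11), *Homer1* (2.65 ± 0.16) and *Arc* (2.08 ± 0.14) were likewise higher. *Fos* itself was not called, with 264, 248 and 412 against 307, 226 and 233 (0.25 ± 0.21, adjusted p = 0.377), nor were *Jun* (0.096 ± 0.099), *Btg2* and *Ier2*. The exceptions were *Nr4a2*, given with the dopamine factors, and *Bdnf*, with 77.7, 94.5 and 239 against 386, 287 and 353 (-1.48 ± 0.32), whose call was lost without VTA mouse 1 (-1.39). The cortical markers that follow were also mostly higher in the accumbens, and their part in this list was not tested.

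Retinoic acid and vitamin D genes were divided. *Rarb* held 1949, 2105 and 1949 against 167, 168 and 162 (3.59 ± 0.082) and *Rxrg* 1446, 1491 and 1497 against 123, 136 and 141 (3.46 ± 0.087), receptors that are usual in striatum, and *Crabp1*, a retinoic acid binding protein, was also higher in the accumbens (3.74 ± 0.25). The synthesizing enzymes *Aldh1a1* and *Aldh1a2* (-2.1 ± 0.32) and the degrading enzyme *Cyp26b1* (-1.08 ± 0.14) were higher in the VTA. In all, 8 of 15 were higher in the accumbens and 3 in the VTA (median 0.44). *Vdr* was below the filter in both regions, with 14, 1 and 7 reads in the accumbens and 12, 10 and 2 in the VTA of wild-type mice. The *Vdr*-/- libraries held 6, 10 and 6 reads in the accumbens and 7, 3 and 17 in the VTA, so its reads do not check the genotype labels. Of the enzymes that activate vitamin D, *Cyp27b1* held 29.4, 34.2 and 28 in the accumbens against 1.49, 0 and 4.95 (3.68 ± 0.61, and 2.99 without mouse 2 and 4.28 without mouse 3) and *Cyp27a1* was higher in the VTA, with 303, 326 and 335 against 83.6, 94.5 and 72 (-1.94 ± 0.13). *Cyp24a1* and *Cyp2r1* were below the filter. Of the 6 tested members of the list, 3 were higher in the accumbens and 2 in the VTA, and these were 2 and 1 without mouse 1, mouse 3 or any 1 VTA library, and 3 and 1 without accumbens mouse 3.

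Transcription factors that pattern the embryonic brain separated the regions. Of 24 telencephalic factors, 23 were tested, and 21 were higher in the accumbens and 0 in the VTA (median 2.66), and 20 and 1 without mouse 1 or its accumbens library alone. *Meis2* held 8350.2, 9471 and 7653 against 280.5, 348 and 247 (4.87 ± 0.079). *Dlx6* held 561, 663 and 442 against 51.5, 49.8 and 37.1 (3.56 ± 0.12). No value of one region reached the other for either gene. Of 36 midbrain and diencephalic factors, 35 were tested, and 33 were higher in the VTA and 0 in the accumbens (median -5.10, or -4.54 with genes at 0 set to their bound). *Gata3*, *Pax7*, *Pax8* and *Sox14* had no accumbens read. The factors *Tal1* (-3.24 ± 0.18) and *Gata2* (-1.18 ± 0.15), with *Gata3*, mark midbrain GABA neurons, a list in which 6 of 7 were higher in the VTA. *Pax6* and *Gbx2* were not called. Of 22 Hox genes, which mark hindbrain and spinal cord, 0 passed the filter.

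Glial genes differed by type. All 16 oligodendrocyte genes were higher in the VTA, by similar amounts (median -1.21), in every fit that left out a mouse or one of the 3 libraries that stood apart. *Mbp*, myelin basic protein, held 44197, 37062 and 35136 against 89068, 96425 and 86416 (-1.23 ± 0.13). Of 7 precursor genes 4 were higher in the VTA, *C1ql1* by most (-1.84 ± 0.17), and *Pdgfra* and *Cspg4* were not called. Astrocyte genes were not uniform: of 16, 12 were higher in the VTA and 2 in the accumbens (median -1.24). *Gfap* held 637, 560.5 and 598 against 3943, 4034 and 5565 (-2.9 ± 0.13). *Agt*, angiotensinogen, held 300.3, 233 and 49.6 against 3555, 3848 and 3856 (-4.62 ± 0.51), with mouse 3 lowest in the accumbens and -3.8 without it. *Slc1a3* (0.70 ± 0.081) and *Mfge8* (1.38 ± 0.11) were higher in the accumbens, and *Slc1a2*, the main glutamate transporter, was not called (0.30 ± 0.22) but was 0.61 and called without mouse 2. Microglial genes were close to even, with 1 of 10 called (*Aif1*, 0.84 ± 0.20, lost without mouse 1 or mouse 2) and a median of 0.14. Without mouse 2, 4 were higher in the VTA and 0 in the accumbens, and without accumbens mouse 2 alone 1 and 1.

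**Figure D4:**
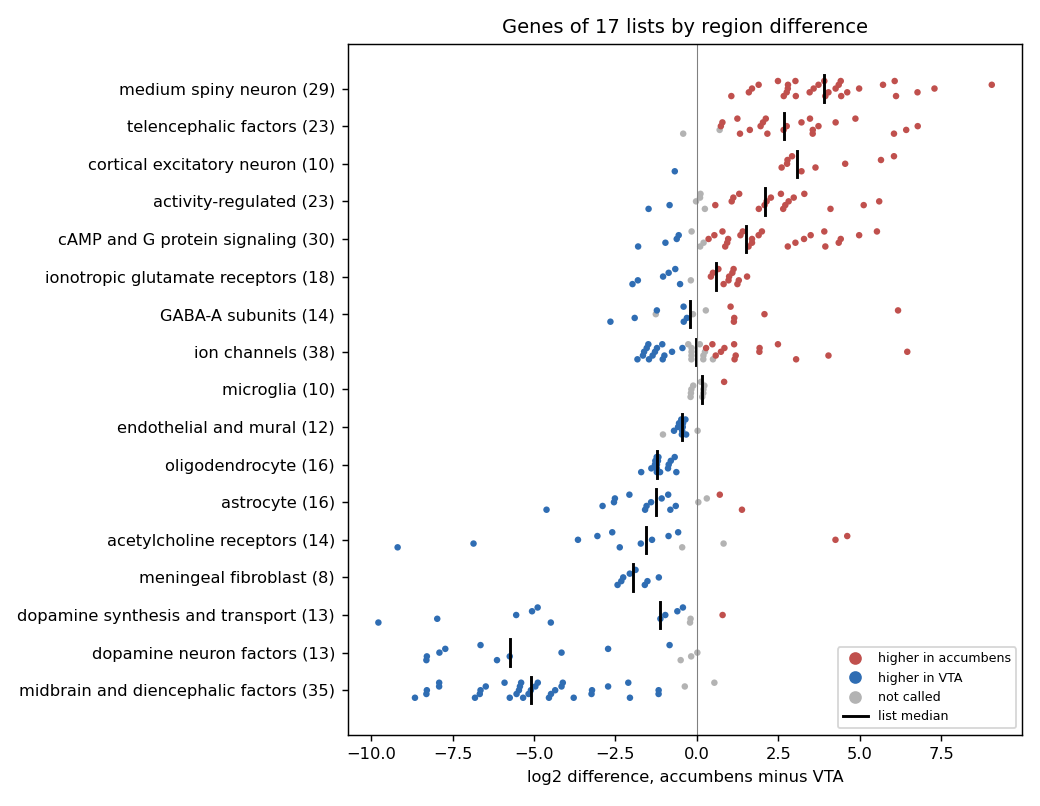
Log2 differences, accumbens minus VTA, of the tested genes of 17 lists, 1 point for each gene, with the number tested in brackets and a bar at the list median. Red points were called higher in the accumbens, blue points higher in the VTA and gray points were not called. Medium spiny neuron genes lie at a median of 3.91 and midbrain and diencephalic factors at -5.10, while microglial genes gather at 0.14.

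Vessels and coverings also leaned to the VTA. Of 12 endothelial and mural genes 10 were higher there, by small amounts (median -0.46), and 2 without mouse 1 or without mouse 3, and 6 without VTA mouse 3. *Abcb1a*, a pump of the blood-brain barrier, held 582, 502 and 579.9 against 897, 880.3 and 927 (-0.70 ± 0.084). All 8 meningeal fibroblast genes were higher in the VTA (median -1.97, and -1.52 without mouse 3), *Dcn* with 71.8, 74.9 and 48 against 304, 248 and 445 (-2.32 ± 0.29). The call of *Lum* was lost in 5 of the 9 fits that left out a mouse or a library (log2 differences from -2.59 to -1.14). The 5 blood genes were higher in the VTA within each mouse, though the ranges overlapped and both regions of mouse 3 were high: *Hbb-bs* held 610.1, 678 and 2313 against 1516, 1259 and 7105 (-1.27 ± 0.15, adjusted p = 0.00184). Without the pairing by mouse, 0 of the 5 were called (adjusted p = 0.195 for *Hbb-bs*), and without mouse 3, 4 were. The difference of *Hbb-bs* was -0.49 without VTA mouse 3 and -1.88 without accumbens mouse 3, both unpaired and not called.

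Markers of neighbouring tissue were present in both punches. Of 10 cortical excitatory genes 9 were higher in the accumbens and 1 in the VTA (median 3.07). *Tbr1*, a factor of deep cortical layers that medium spiny neurons lack, held 857, 963 and 1677 against 10.4, 12.2 and 30.5 (6.05 ± 0.15). The summed values of the cortical list lay between 52863 and 77129.9 in the accumbens and between 6715 and 15477 in the VTA, with mouse 3 highest in both regions. *Tbr1* was a small part of each sum. The list also holds *Nrgn* and *Camk2a*, and how much of each sum came from cortical tissue was not tested. Without VTA mouse 2, 6 and 0 of its genes were called in the accumbens and the VTA, without VTA mouse 1, 7 and 0, without mouse 1, 9 and 0, and without VTA mouse 3, 9 and 0 (median 3.88). On the VTA side, 7 of 8 hypothalamic and mammillary genes were higher in the VTA and 0 in the accumbens. *Pmch*, the melanin-concentrating hormone precursor, held 5.89, 3.26 and 2.4 against 112, 1639.7 and 127 (-5.95 ± 0.85), and *Hcrt*, the orexin precursor, had no accumbens read and held 1.49, 169 and 6.6 in the VTA, where mouse 2 was highest for both. Without VTA mouse 2 the difference of *Pmch* was -4.7, and without mouse 1 -6.9. The call of *Hcrt* (adjusted p = 0.0495) was lost without mouse 3 (-4.25) and in 4 single-library fits, it was -5.13 and called without mouse 1, and without VTA mouse 2 the gene fell below the filter. *Tph2*, which makes serotonin, held 11.8, 1.63 and 4.8 against 9.7, 169 and 8.25 and was not called (-2.14 ± 1.22), and without VTA mouse 2 it was below the filter. Of 8 thalamic genes 5 were higher in the VTA and 1 in the accumbens, and 3 and 1 without VTA mouse 2 or VTA mouse 3. Of 7 hippocampal genes 2 and 4 were called in the same order, and 1 and 4 without VTA mouse 1 or VTA mouse 3. Of 6 septal genes 1 and 2 were called, a share near the 45.1% of all genes, and the first count was 0 to 2 over the 9 fits that left out a mouse or a library. Of 7 habenular and interpeduncular genes 5 were higher in the VTA, and the 1 higher in the accumbens, *Gpr151* (1.15 ± 0.34), was called in only 1 of these fits. Of 5 tested choroid plexus and ependymal genes 0 were higher in the VTA and 3 in the accumbens. Without mouse 1 these were 1 and 1 of 4 tested, and without accumbens mouse 1 alone 1 and 2. *Ttr*, their defining marker, was below the filter with 1 to 6 reads in each library. What part these markers have in the region differences was not tested.

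**Figure D5:**
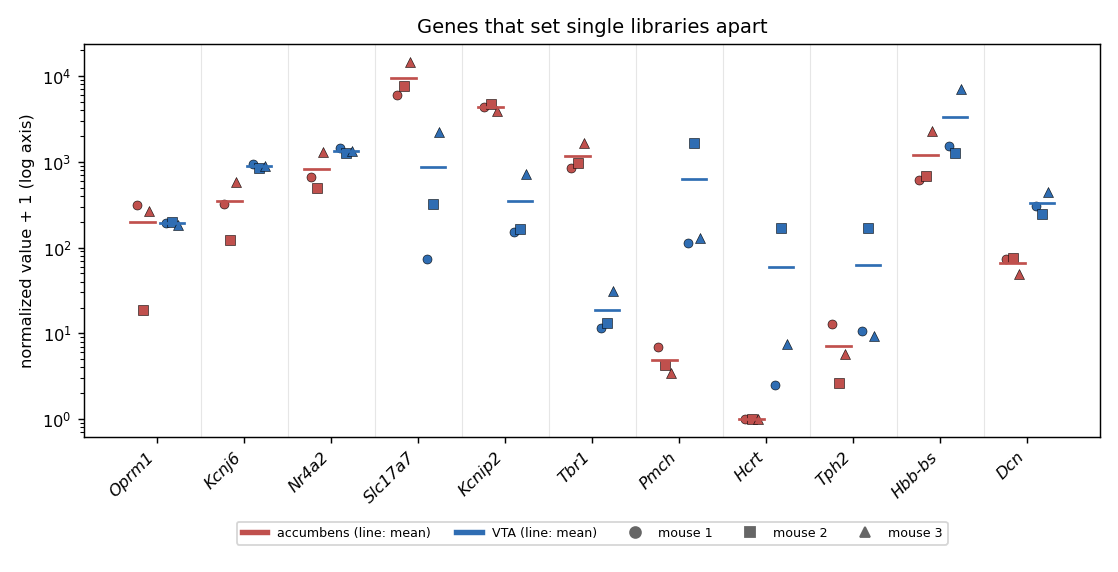
Values plus 1 of 11 genes on a log axis, red for the accumbens and blue for the VTA, with a symbol for each mouse and a line at each mean of 3 mice. Accumbens mouse 2 is lowest for *Oprm1* at 17.9, VTA mouse 3 highest for *Slc17a7* and *Kcnip2*, VTA mouse 2 highest for *Pmch* and *Tph2*, and mouse 3 highest in both regions for *Hbb-bs*.

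The regional differences were compared with those of *Vdr*-/- PBS mice. A change with genotype was tested in 1 model of 12 libraries, and diet may differ with genotype, as stated above. The differences and calls given for *Vdr*-/- mice come from a separate fit of their libraries alone, scaled and filtered on their own. Of 16323 genes tested for a change of the regional difference with genotype, 0 (0%) were called by limma, 900 had an unadjusted p under 0.05, and edgeR called 0 with 883. The smallest adjusted p was 0.834. The median absolute change was 0.14 on the log2 scale. Of the 1368 genes at least 2-fold higher in the wild-type accumbens that were also tested in *Vdr*-/- mice, 1364 had the same sign there and 1297 were called (median 1.65 in wild-type and 1.55 in *Vdr*-/- mice). Of 1407 at least 2-fold higher in the wild-type VTA, 1405 had the same sign and 1307 were called (-1.46 and -1.41). The 2 genotypes share no library, but the wild-type values chose these genes. *Slc6a3* differed by -9.78 ± 0.19 in wild-type and by -7.2 in *Vdr*-/- mice, and *Th* by -5.55 ± 0.088 and -4.45. *Drd1* differed by 6.11 ± 0.15 and 5.81, and *Penk* by 4.43 ± 0.078 and 4.06. Each SE is that of the wild-type fit and does not measure the gap between genotypes. For *Slc6a3* the limma test of that gap gave an unadjusted p of 0.0232 and an adjusted p of 0.834. A p that misses the threshold with 3 mice a genotype does not show that the regions differ alike in both.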

How the data were processed

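Libraries were made from total RNA of bilateral micropunches with a directional kit. The authors trimmed reads with Trimmomatic 0.36, mapped them with STAR 2.4.2a to the GENCODE mouse annotation on GRCm38 and counted reads per gene. How the counting treated strand is not given in the sources used here, so overlapping and antisense genes are uncertain. The deposited values are signal: counts divided by a size factor of each library within its table, in 8 tables of 2 groups, of which 2 were used. Every value was a whole multiple of that of 1 read (100% of values, tolerance 0.01). The counts recovered in this way were joined on gene identifier, which gave 28526 genes. Of these, 3724 were present in only 1 table and were given 0 reads in the libraries of the other. Precision follows depth, from 11628792 to 24639035 reads on genes.

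The 6 libraries were scaled together with median-of-ratios size factors. A gene was tested where its mean value reached 10, on log2(value + 1), a scale that understates changes of low genes, with limma 3.58.1 (empirical Bayes with variance trend, mouse number as block), two-sided. P-values were adjusted by Benjamini-Hochberg, and 0.05 was the threshold. Only the recovered reads made a count model possible, and edgeR 4.0.16 and DESeq2 1.42.0 served as alternatives. The change with genotype was tested as an interaction over 12 libraries. The code was tested on simulated data. Numbers that the labels give to both regions were taken as mice, which no label states, and used as the block: over 13104 genes, deviations from the group mean correlated at r = 0.187, 0.0949 and 0.192 between same-numbered libraries and at -0.027 to -0.124 between others, a description across genes in which 1 of the 3 is under 0.1.

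Lists hold genes from general knowledge, and some of their members that the rules name are not reported here. The samples, lists and rules were chosen with earlier results of these data known. Named genes were the 12 largest differences each way with a mean of at least 100, up to 6 called members a list and direction, members against the majority of their list, the 3 most abundant members not called, and genes that define the regions or the study; further list members are named where they complete a family, and these were chosen after their values were seen. Positions come from GENCODE M21 on GRCm38 (99.8% of identifiers matched) and promoters from RefSeq. The alternatives changed the scaling, pseudocount, filter, tool, variance trend and block, or left out mice and libraries. The 5 alternatives that leave out 1 library other than accumbens mouse 2 were chosen after seeing the data. The code ran in R 4.3.3 and in Python 3.11.15 with pandas 2.3.3, numpy 2.4.6, matplotlib 3.10.9 and scipy 1.17.1.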

Additional observations from a re-analysis of the deposited data

How the results depend on the processing

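The number of genes higher in the accumbens (3563) and in the VTA (3786) stayed within 1.5 times of these values under other tools, scalings, pseudocounts, filters and without the variance trend. Without the pairing by mouse (no replicate block) the counts were 3679 and 3856, with edgeR 3603 and 3818, and with DESeq2 2980 and 3154. Leaving out a mouse gave 2111 to 4366 genes higher in the accumbens and 2185 to 4548 in the VTA: mouse 1 gave 2111 and 2185, mouse 3 gave 2384 and 2457, and mouse 2 gave the highest counts, 4366 and 4548. Fits that leave out a mouse hold 4 libraries. Without accumbens mouse 2 alone, unpaired, the counts were 4407 and 4602. The accumbens share of all calls was 48.5%, and 50.5% with TMM, 47.3% with quantile normalization and 40.3% with scaling by total reads, under which the median of all genes was -0.09. Among genes called in the comparison or in the alternative, the direction reversed for *Oprm1* without mouse 2 (0.62) and without its accumbens library (0.60), for *Kcna1* without mouse 2 (0.20) and for *Kdm5d* in the same settings (0.28 and 0.32), and the cause was not tested. Of 75 named genes and list members not called, 26 took both signs over the 9 fits that left out a mouse or a library, *Fos*, *Nts*, *Tac2* and *Gabrb1* among them, as did 0 of the 360 called. Over the fits without 1 mouse, *Oprm1* ranged from -1.42 to 0.62, *Kcna1* from -0.37 to 0.20 and *Kdm5d* from -0.16 to 0.28. Of 435 named genes and list members tested, 321 kept their direction and their side of the threshold in all 23 alternatives, as did 286 of the 360 called. Leaving out the pairing lost 19 of these calls, among them the 5 blood genes, and added 2. Where exon length is compared, the median was 4658 bases for genes higher in the accumbens and 4434 for those higher in the VTA, and 5210.5 and 4327 without mouse 2.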

Other observations

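Neighbouring genes on a chromosome were compared as a further description. Of 12774 pairs of adjacent protein-coding genes in which both were tested, 489 had both members called at least 2-fold different. In 133 pairs both were higher in the accumbens, in 193 both in the VTA, and in 163 the members went opposite ways. Of all 16312 tested genes, 8.61% were called at least 2-fold higher in the accumbens and 8.91% in the VTA. The number of pairs that these shares alone would give was not computed, so the counts do not show whether neighbours go together. The bigenic pair *Dlx5* and *Dlx6*, homeobox factors of GABA neurons, was among families with 1 direction: *Dlx5* held 244, 393 and 208 in the accumbens against 21.6, 27.4 and 18.1 in the VTA (3.56 ± 0.15) and *Dlx6* differed by 3.56 ± 0.12. The nicotinic subunits *Chrna3* (-3.65 ± 0.34) and *Chrna5* (-3.06 ± 0.16) likewise shared the direction of the VTA, while the GABA-A subunits *Gabra2* (1.03 ± 0.093) and *Gabrg1* (-0.40 ± 0.091) went opposite ways. These families were chosen after their values were seen.

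Genes without any read in one of the regions were few. Among tested genes, 10 had no read in the 3 VTA libraries and 20 none in the 3 accumbens libraries, and all of these were called. A gene absent from the deposited values of a region was counted as 0 there. With a value of at least 10 over 6 libraries needed for a test, a gene at 0 in one region had to be well above it in the other, so the calls follow from the filter in part.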
